A study of Saccharomyces cerevisiae with 6 samples.

Results

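The 10 genes described here make or recycle nicotinamide adenine dinucleotide (NAD) in the yeast Saccharomyces cerevisiae. They are BNA1, BNA2, BNA3, BNA4, BNA5, BNA6, NPT1, PNC1, NMA1 and NMA2. They were chosen by name and function, but with earlier results of these data known. Each was found through its gene symbol in the annotation of the Affymetrix Yeast 2.0 array, and each had 1 probe set, so they make up 10 of the 5684 S. cerevisiae genes tested. Messenger RNA was compared between yeast that overexpressed eEF1A, the translation elongation factor that delivers aminoacyl-tRNA to the ribosome, and yeast that carried a control plasmid. The eEF1A group (2 arrays, numbered 2 and 3) held a 2 micron plasmid with the LEU2 marker and the eEF1A gene TEF1, which the study's methods place under the constitutive GPD promoter, and its cells were labelled as enlarged. The control group (4 arrays, numbered 1 to 4) held the same kind of plasmid without TEF1, and its cells were labelled as normal in size. All cultures were in synthetic medium without leucine at 30 °C, were diluted to an optical density of 0.1 and were collected at 0.7, in log phase. The study's methods describe biological triplicate cultures, whereas 2 and 4 arrays were available, and nothing in the labels says which arrays came from separate cultures. The p-values therefore measure the spread between these arrays, which may be technical.

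The groups differed in more than the plasmid. The controls had the transcripts of a cells and the eEF1A arrays those of α cells. Of 7 genes that mark the a mating type (MFA1, MFA2, STE2, STE6, BAR1, ASG7 and AGA2), 7 were lower in the eEF1A arrays, with a list mean per array of 6.37 to 6.60 on the log2 scale in eEF1A and 11.19 to 11.25 in control. Of 4 genes that mark the α mating type (MF(ALPHA)1, MF(ALPHA)2, STE3 and SAG1), 4 were higher, with a list mean of 12.10 to 12.38 in eEF1A and 5.97 to 6.13 in control. MET17, a methionine synthesis gene that is often deleted in laboratory strains, averaged 11.55 in eEF1A, while its control mean of 4.96 was within background, a log2 difference of at least 6.37 (adjusted p = 5.78e-09, limma). URA3, another common strain marker, averaged 6.22 in eEF1A against 3.48, also within background, in control, a difference of at least 1.04 (adjusted p = 2.97e-05, limma). The markers HIS3 and LYS2 were higher by 0.29 and 0.23 (adjusted p = 0.00214 and 0.00766, limma), and LEU2, carried by both plasmids, differed by 0.06 (adjusted p = 0.352, limma). The effect of the plasmid, of mating type and of the strain background on the genes below cannot be told apart. The probe set shared by TEF1 and its identical copy TEF2 stood at 14.51 and 14.49 in eEF1A and at 14.48 to 14.51 in control (difference 0.00, adjusted p = 0.955, limma), so the array gave no check on the overexpression, and where this bright signal saturates was not tested.

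NAD carries electrons between the reactions of fermentation and respiration, and it is also consumed by enzymes such as the sirtuins, which use it to remove acetyl groups from proteins. Yeast makes it in several ways that meet at nicotinic acid mononucleotide. The de novo or kynurenine route starts from tryptophan and runs through BNA2, BNA7, BNA4, BNA5, BNA1 and BNA6, and several of its steps use molecular oxygen. The salvage route turns nicotinamide back into nicotinic acid with PNC1 and attaches it to phosphoribosyl pyrophosphate with NPT1. NMA1 or NMA2 then add the adenylyl group and QNS1 completes the molecule. The repressor Sum1, with the sirtuin Hst1 and the linker protein Rfm1, is known to hold several BNA genes down when NAD is plentiful.

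Of the 10 genes, 8 rose in eEF1A, none fell and 2 did not pass the test (limma, Benjamini-Hochberg adjusted p below 0.05 over all 5684 genes). Over all genes tested, 27.7% rose by the same rule and 15.6% fell. The genes that rose were BNA1, BNA2, BNA4, BNA5, BNA6, NPT1, PNC1 and NMA2, by 1.20 to 1.81-fold, and the genes that did not pass were BNA3 and NMA1. The median log2 difference, eEF1A minus control, was 0.38 over the 10 genes and 0.04 over all genes. In 8 of the 10 genes every eEF1A array lay above every control array, which was true of 35.9% of all genes. The study itself set its threshold at a B-statistic (limma's log odds of differential expression) of 1.5. By that rule only PNC1 of the 10 genes was called higher, against 6.14% of all genes. These values are amounts per unit of total RNA from whole cultures, in which more transcript in each cell and more cells that make it cannot be told apart.

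**Figure D1:**
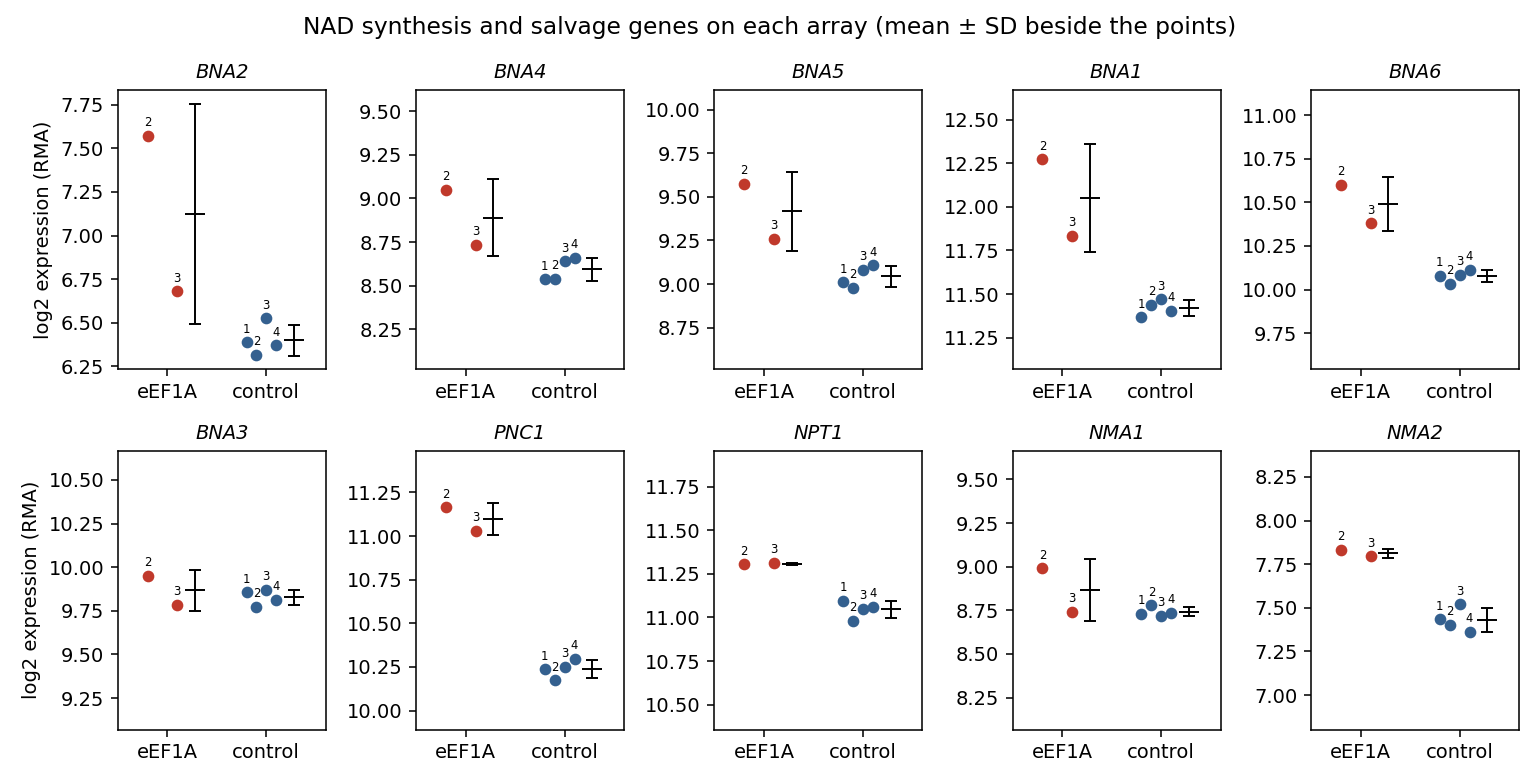
Expression of the 10 genes on each array (y axis, log2 RMA value, every panel spanning the same range), with eEF1A arrays 2 and 3 at the left and control arrays 1 to 4 at the right of each panel, and the mean ± SD beside the points. Both eEF1A arrays lie above the 4 control arrays in every panel except BNA3 and NMA1, and the eEF1A arrays are furthest apart in BNA2, at 7.57 and 6.68.

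The values are log2 expression after Robust Multi-array Average (RMA) normalisation, so a difference of 1 is a doubling, and a level is read only against the same gene's level on other arrays. Values at or under 5.18, the 95th percentile of the mean signals of the chip's Schizosaccharomyces pombe probe sets, which have no target in these cells, were taken as within background. All 10 genes were above this level, as were 5463 of the 5684 genes (96.1%).

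All genes of the kynurenine route rose, namely its 5 genes among the 10 and BNA7. That makes 6 of 6, against 27.7% over all genes. The median difference was 0.39, against 0.04 over all genes, and 0 of the 6 passed the B-statistic rule. BNA2 encodes the dioxygenase that opens the indole ring of tryptophan and commits it to this route. It read 7.57 and 6.68 in eEF1A, against 6.39, 6.32, 6.53 and 6.37 in control. The lower eEF1A array was only just above the highest control. Its mean was 7.13 ± 0.63 in eEF1A (SD, n = 2) and 6.40 ± 0.09 in control (SD, n = 4), a difference of 0.73 with a standard error of 0.20, or 1.65-fold (adjusted p = 0.0210, limma). The size of the change rested on eEF1A array 2, since the difference was 0.28 without it and 1.17 without array 3. A fit with 1 eEF1A array holds no spread between eEF1A arrays, so only its difference is given, here and below.

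BNA7, the formamidase that follows, read 9.21 and 9.11 in eEF1A and between 8.72 and 8.89 in control. The groups did not overlap and the eEF1A arrays were close to each other, with a difference of 0.34 (standard error 0.06, adjusted p = 0.00371, limma). BNA4 encodes the mitochondrial monooxygenase that hydroxylates kynurenine. It read 9.05 and 8.73 in eEF1A, against 8.54, 8.54, 8.64 and 8.66 in control, and the lower eEF1A array again stood just above the controls. The difference of 0.30 (standard error 0.09, adjusted p = 0.0273, limma) lost its call under more alternatives than any other of the 8. It no longer passed without control 1 (0.28, adjusted p = 0.0679, limma) or without control 2 (0.28, adjusted p = 0.0633, limma). Without eEF1A array 2 it was 0.14 and without eEF1A array 3 it was 0.45.

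BNA5 encodes kynureninase, which splits off alanine. It read 9.57 and 9.26 in eEF1A, against 9.01, 8.98, 9.08 and 9.11 in control. Both eEF1A arrays exceeded all controls, by an average of 0.37 (standard error 0.09, adjusted p = 0.0103, limma), or by 0.21 without eEF1A array 2. BNA1 encodes the dioxygenase that opens the ring of hydroxyanthranilic acid. Its values were 12.27 and 11.83 in eEF1A and 11.37, 11.44, 11.47 and 11.40 in control. The controls lay within 0.10 of each other and both eEF1A arrays were clearly above them, a difference of 0.63 with a 95% confidence interval of 0.38 to 0.88, or 1.55-fold (adjusted p = 0.00235, limma). Without eEF1A array 2 the BNA1 difference was 0.41.

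BNA6 encodes quinolinate phosphoribosyltransferase, the step that delivers nicotinic acid mononucleotide and so joins the de novo route to salvage. It read 10.60 and 10.38 in eEF1A, against 10.08, 10.03, 10.08 and 10.11 in control. The groups were apart by more than the spread within either, with a difference of 0.41 (confidence interval 0.26 to 0.57, 1.33-fold, adjusted p = 0.00201, limma). BNA3 carries the route's name but encodes the aminotransferase that diverts kynurenine to kynurenic acid, away from NAD. It read 9.95 and 9.79 in eEF1A, against 9.86, 9.77, 9.87 and 9.81 in control. The groups overlapped, and the difference of 0.04 did not pass (confidence interval -0.10 to 0.18, adjusted p = 0.627, limma), so an increase as large as that of BNA6 was outside its interval. Without eEF1A array 2 the BNA3 difference was -0.04 and without array 3 it was 0.12.

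PNC1 changed the most of the 10 genes. It encodes nicotinamidase, which removes the sirtuin inhibitor nicotinamide and is known as a stress-induced gene. The values were 11.16 and 11.03 in eEF1A, against 10.24, 10.17, 10.25 and 10.30 in control. The eEF1A arrays lay far above the controls relative to the spread within each group, with means of 11.10 ± 0.09 (SD, n = 2) in eEF1A and 10.24 ± 0.05 (SD, n = 4) in control. The difference was 0.86 with a confidence interval of 0.72 to 1.00, or 1.81-fold (adjusted p = 3.03e-05, limma), and PNC1 ranked 63 by B-statistic among all genes that were higher. Leaving out either eEF1A array moved its difference only between 0.79 and 0.93.

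The next salvage enzyme, nicotinate phosphoribosyltransferase, is encoded by NPT1. It read 11.30 and 11.31 in eEF1A, against 11.09, 10.98, 11.05 and 11.06 in control. The increase was smaller than that of PNC1 but even in both eEF1A arrays, at 0.26 (standard error 0.05, 1.20-fold, adjusted p = 0.00467, limma).

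NMA1 and NMA2 are paralogs that encode the adenylyl transferases used by both routes, and their measurements differed in outcome. NMA2 read 7.83 and 7.80 in eEF1A, against 7.43, 7.40, 7.52 and 7.36 in control. The groups were well apart, with a difference of 0.38 (confidence interval 0.25 to 0.52, adjusted p = 0.00133, limma). NMA1 read 8.99 and 8.74 in eEF1A, against 8.73, 8.78, 8.72 and 8.74 in control. One of the eEF1A arrays was above the controls and the other among them, and the difference of 0.12 did not pass (confidence interval -0.04 to 0.29, adjusted p = 0.195, limma). The NMA1 result turned on the eEF1A array used, since the difference was 0.25 without array 3 and -0.00 without array 2. The intervals of the paralogs overlapped between 0.25 and 0.29, and the difference between their changes was not tested. QNS1, the NAD synthetase that completes both routes, read 9.94 and 9.83 in eEF1A and 9.78 to 9.82 in control (difference 0.09, adjusted p = 0.191, limma). Its difference was 0.03 without eEF1A array 2 and 0.15 without array 3. Of the 5 salvage and last-step genes, 3 rose and 2 did not pass, while 27.7% of all genes rose.

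**Figure D2:**
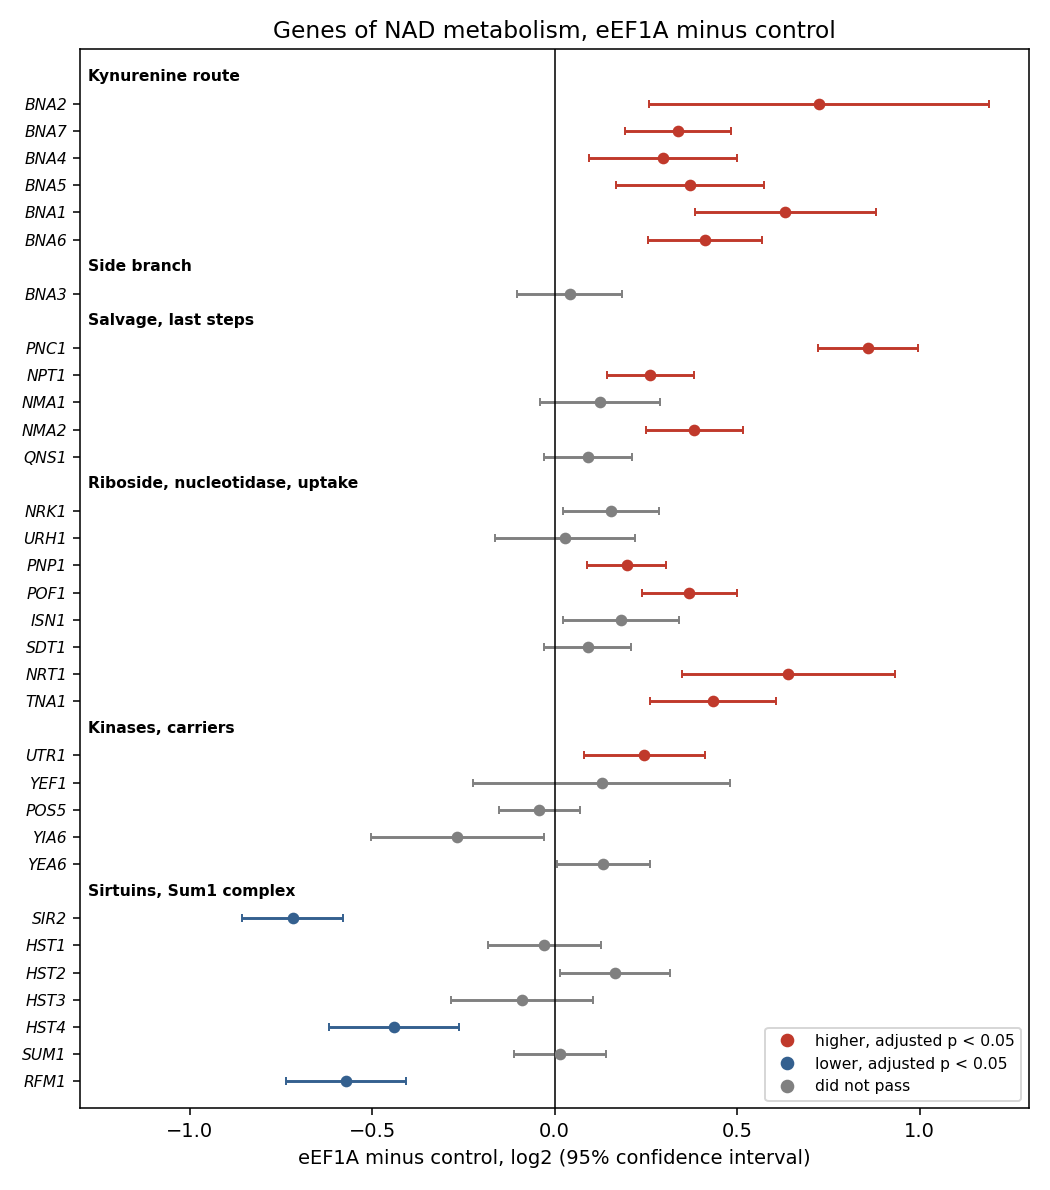
Log2 difference, eEF1A minus control, with its 95% confidence interval (x axis) for genes of NAD metabolism grouped by role (y axis). Red points rose and blue points fell at an adjusted p below 0.05, and grey points did not pass. The kynurenine genes all lie right of 0, PNC1 lies furthest right at 0.86, and SIR2, HST4 and RFM1 lie left of 0.

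The eEF1A arrays were less alike than the control arrays, and the gap between them differed from gene to gene. Array 2 read higher than array 3 in 9 of the 10 genes, with NPT1 as the exception, and in 82.4% of all genes. The median gap between them was 0.23 over the 10 genes, 0.32 over the 6 kynurenine genes and 0.11 over all genes. Array 2 also had the highest overall median, at 9.12, against 9.03 for array 3 and at most 9.05 for the control arrays. Its part in the changes was not tested beyond leaving the array out. Without array 2 the median difference was -0.01 over all genes and 0.27 over the 10 NAD genes. Without array 3 these medians were 0.09 and 0.49. Setting every array to the same median moved the median difference of the 10 genes to 0.32 and kept all 8 calls, but it also moved the split over all genes to 1374 higher and 1453 lower (48.6% of calls higher), against 1574 and 886 (64.0%) in the values as deposited. A second quantile normalisation over the S. cerevisiae probe sets gave 1369 higher and 1491 lower (47.9%), again with 8 NAD genes higher.

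**Figure D3:**
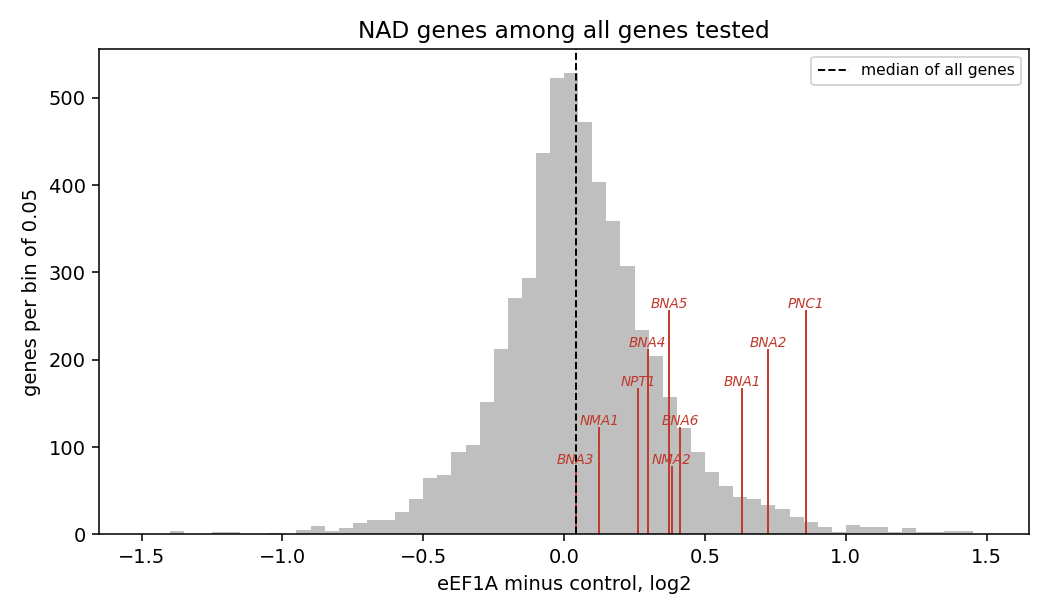
Number of genes (y axis) by log2 difference, eEF1A minus control (x axis, bins of 0.05, 58 genes beyond 1.5 in either direction not drawn), over all 5684 genes, with the 10 NAD genes as red lines whose heights differ only to keep the labels apart. The dashed line is the median of all genes, 0.04. BNA3 lies on it, 9 NAD genes lie right of it, and BNA1, BNA2 and PNC1 lie in the thin right tail.

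Both genes for uptake of NAD precursors rose. Of 10 NAD route genes outside the first 10, 5 rose, none fell and 5 did not pass, while 27.7% of all genes rose and 15.6% fell. BNA7 and QNS1 were among them and were also counted above. TNA1, the high-affinity nicotinic acid permease, read 11.01 and 10.83 in eEF1A and 10.41 to 10.60 in control, a difference of 0.43 (standard error 0.08, adjusted p = 0.00253, limma). NRT1, which imports nicotinamide riboside, read 8.32 and 7.85 in eEF1A and 7.27 to 7.55 in control, a difference of 0.64 (standard error 0.13, adjusted p = 0.00479, limma), or 0.41 without eEF1A array 2. In both transporters the eEF1A arrays lay above all controls, as in 35.9% of all genes. BNA7 (above), POF1, a nicotinamide mononucleotide adenylyltransferase (0.37, adjusted p = 0.00139, limma), and PNP1, the purine nucleoside phosphorylase that can split nicotinamide riboside (0.20, adjusted p = 0.0107, limma), completed the 5. The riboside genes were otherwise weak, with 0.15 for the kinase NRK1 (adjusted p = 0.0590, limma) and 0.03 for the nucleosidase URH1 (adjusted p = 0.819, limma). Neither passed. Without eEF1A array 3 NRK1 was at 0.21 and URH1 at 0.18, and without array 2 they were at 0.10 and -0.13. The nucleotidases ISN1 (0.18, adjusted p = 0.0633, limma) and SDT1 (0.09, adjusted p = 0.191, limma) also did not pass, nor did QNS1 (above). ISN1 was at 0.27 without eEF1A array 2 and at 0.09 without array 3.

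Of 5 genes for NAD kinases and mitochondrial NAD carriers, 1 rose and 4 did not pass, while 27.7% of all genes rose. UTR1, the cytosolic NAD kinase, differed by 0.25 (adjusted p = 0.0259, limma). It no longer passed without control 2 (0.20, adjusted p = 0.0517, limma) or without control 3 (0.23, adjusted p = 0.0582, limma). Without eEF1A array 2 UTR1 was at 0.21. Its paralog YEF1 differed by 0.13 (adjusted p = 0.530, limma). The direction of YEF1 turned with the array used, at 0.45 without eEF1A array 3 and -0.20 without array 2. The mitochondrial NADH kinase POS5 differed by -0.04 (adjusted p = 0.510, limma). Of the mitochondrial NAD carriers, YEA6 differed by 0.13 (adjusted p = 0.0862, limma), with 0.20 without eEF1A array 3 and 0.07 without array 2. YIA6 differed by -0.27 (confidence interval -0.50 to -0.03, adjusted p = 0.0667, limma), with both eEF1A arrays under all controls. It was at -0.44 without eEF1A array 2 and at -0.09 without array 3. YIA6 passed as lower after a second quantile normalisation and after setting every array to the same median.

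None of the NAD-using sirtuin genes or their partners rose. Of the 5 sirtuin genes and the partners SUM1 and RFM1, 3 fell and 4 did not pass, while 15.6% of all genes fell. SIR2, the founding sirtuin, which silences the mating-type cassettes, telomeres and ribosomal DNA, read 8.57 and 8.41 in eEF1A, against 9.20, 9.23, 9.25 and 9.16 in control. The groups were far apart, with a difference of -0.72 (standard error 0.06, adjusted p = 7.57e-05, limma). RFM1, the protein that tethers Hst1 to Sum1, read 6.98 and 6.77 in eEF1A, against 7.42, 7.53, 7.40 and 7.44 in control, a difference of -0.57 (standard error 0.07, adjusted p = 0.000502, limma). SIR2 and RFM1 also passed the B-statistic rule as refitted here, which called 2.53% of all genes lower. HST4, which acts on histone H3, fell by 0.44 on the log2 scale (adjusted p = 0.00271, limma). In SIR2, RFM1 and HST4 both eEF1A arrays lay under all controls, as in 21.6% of all genes.

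The other members of the repressor complex showed no change past the threshold. SUM1 differed by 0.01 (confidence interval -0.11 to 0.14, adjusted p = 0.865, limma) and HST1 by -0.03 (confidence interval -0.18 to 0.13, adjusted p = 0.760, limma). HST2 differed by 0.17 (adjusted p = 0.0730, limma) and HST3 by -0.09 (adjusted p = 0.423, limma). Without eEF1A array 2 HST3 was at -0.24 and without array 3 at 0.06. Few of the sporulation genes that Sum1 is also known to repress could be measured. Only 2 of 6 were above background, namely SPS1, which was lower by 0.82 on the log2 scale (adjusted p = 0.000405, limma), and SMK1, with 0.05 (adjusted p = 0.559, limma). SPR3 and SPS2 passed as higher but were within background in both groups, so no fold is given for them.

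In the values as deposited, the lists from neighbouring pathways also held genes that rose and none that fell. Over all genes 27.7% rose and 15.6% fell, with a median difference of 0.04. Of 9 genes measured for tryptophan supply and its competing uses, 6 rose and none fell, with a median difference of 0.31. They included TRP2 (0.35, adjusted p = 0.00233, limma), which starts the tryptophan branch with TRP3, and TRP4 and TRP5 (0.33 and 0.32). ARO10, a decarboxylase of the pathway that breaks tryptophan down, rose by 0.40 (adjusted p = 0.00970, limma), or by 0.22 without eEF1A array 2. The tryptophan permease TAT2 differed by 0.11 (adjusted p = 0.158, limma), with 0.19 without eEF1A array 3 and 0.03 without array 2. The permease TAT1 differed by 0.03 (adjusted p = 0.834, limma), with 0.21 without eEF1A array 3 and -0.15 without array 2. Of 11 genes for Bas1, Pho2 and purine synthesis, which are known to share the Bas1 activator with some BNA genes, 7 rose and none fell, with a median of 0.30. The largest changes were in ADE17 (0.77), ADE1 (0.61), ADE2 (0.51) and ADE13 (0.49), with adjusted p values of 0.000621 or less (limma). The brightest genes of this list that did not pass were ADE6 (0.08, adjusted p = 0.251, limma) and ADE5,7 (0.15, adjusted p = 0.0620, limma). BAS1 itself differed by -0.11 (adjusted p = 0.203, limma).

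Of 8 genes linked to the reoxidation of NADH, directly or through a shuttle, 5 rose and none fell, with a median of 0.32. Over all genes 27.7% rose and 15.6% fell, with a median of 0.04. NDI1, the internal mitochondrial NADH dehydrogenase, rose by 0.71 (adjusted p = 0.000276, limma) and read 7.66 and 7.77 in eEF1A, against 6.94 to 7.17 in control. ADH3, GPD1 and NDE1 rose by 0.45, 0.41 and 0.32. ADH1, the main fermentative alcohol dehydrogenase, differed by 0.08 (adjusted p = 0.230, limma). GUT2 differed by -0.27 (adjusted p = 0.102, limma), with -0.48 without eEF1A array 2 and -0.05 without array 3. After a second quantile normalisation, and after setting every array to the same median, GUT2 passed as lower.

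General stress genes were examined because PNC1 is known to respond to Msn2 and Msn4, and they did not move as a block. Of 11 such genes 7 rose, none fell and 4 did not pass, with a median of 0.77. The share that rose over all genes was 27.7% and the share that fell 15.6%, with a median of 0.04. Genes of glucose phosphorylation and trehalose synthesis led, with 1.68 for GLK1, 1.41 for HXK1, 1.40 for TPS2 and 1.24 for PGM2 (adjusted p of 0.00282 or less, limma). HXK1 was 0.85 without eEF1A array 2. MSN4 itself rose by 0.93 (adjusted p = 4.65e-05, limma), the trehalose synthase gene TPS1 by 0.77 and the catalase gene CTT1 by 0.61 (adjusted p = 6.75e-05 and 0.00446, limma). The 4 genes that did not pass were MSN2 (-0.14, adjusted p = 0.0627, limma), DDR2 (-0.43, adjusted p = 0.0657, limma), HSP12 (-0.74, adjusted p = 0.318, limma) and HSP26 (-0.29, adjusted p = 0.297, limma). HSP12 read 11.96 and 9.94 in eEF1A, against 11.15 to 12.45 in control, and HSP26 read 8.69 and 7.81 in eEF1A, against 8.60, 8.35, 8.62 and 8.57 in control. Both spread widely in eEF1A. Without eEF1A array 2 their differences were -1.75 and -0.73, and without array 3 they were 0.27 and 0.15. DDR2 was at -0.67 without eEF1A array 2 and at -0.19 without array 3. Both MSN2 and DDR2 passed as lower after a second quantile normalisation and after setting every array to the same median. The part of this response in the level of PNC1 was not tested.

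**Figure D4:**
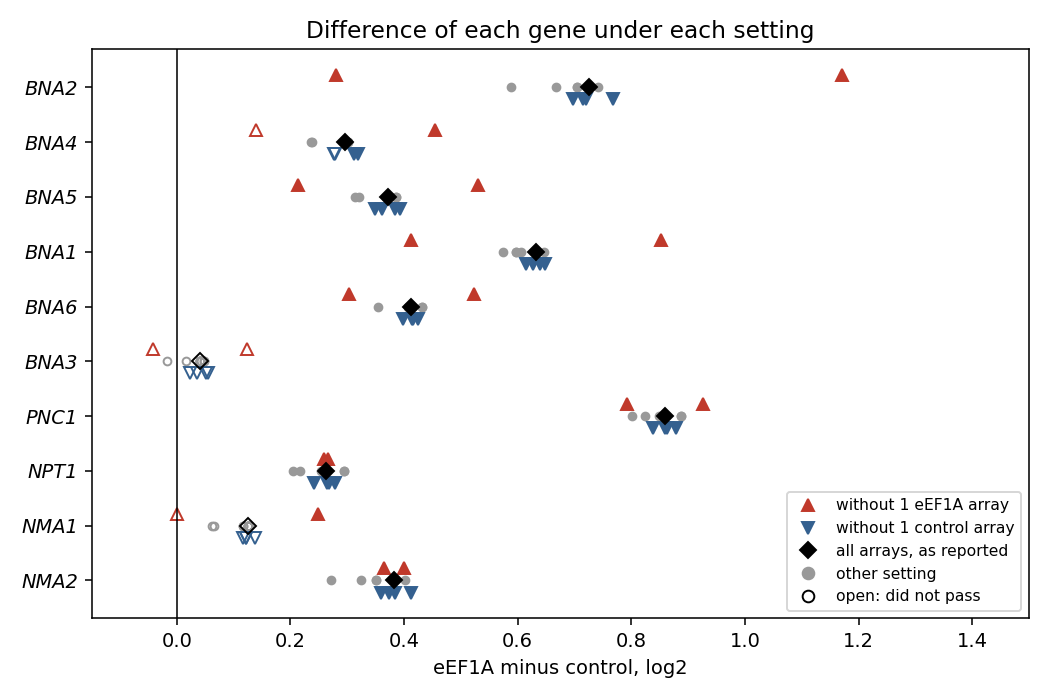
Log2 difference, eEF1A minus control (x axis), of each of the 10 genes (y axis) with all arrays (black diamonds), without 1 eEF1A array (red), without 1 control array (blue) and under the other ways of processing (grey), where open symbols did not pass an adjusted p of 0.05. BNA2 spans 0.28 to 1.17 between the eEF1A arrays, whereas the red symbols of NPT1, NMA2 and PNC1 lie within 0.13 of each other. Whether a red symbol is open or filled rests on the spread of the control arrays alone.

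The 10 genes do not form a cluster in the genome. By the array annotation, which uses the SGD build of October 2003, BNA1 is at chr10:470832-471365 on the minus strand, BNA2 at chr10:578554-579915 and BNA3 at chr10:323082-324416, both on the plus strand. BNA4 is at chr2:39137-40519 (plus), BNA5 at chr12:605758-607119 (minus), BNA6 at chr6:244266-245153 (minus) and NPT1 at chr15:736437-737726 (minus). PNC1 is at chr7:427301-427951 (minus), NMA2 at chr7:511546-512733 (plus) and NMA1 at chr12:784913-786118 (plus). Each interval is the aligned coding sequence that its probe set was designed for. Of the 19 measured genes directly beside them, 3 rose, 3 fell and 13 did not pass, against 27.7% higher and 15.6% lower over all genes. PTP2 beside NPT1 (0.27), CNN1 beside BNA6 (0.25) and YHC3 beside BNA3 (0.23) rose, and MIR1 beside BNA2, RMD8 beside BNA6 and OCH1 beside PNC1 fell (-0.29, -0.23 and -0.53).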

How the data were processed

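Total RNA from log phase yeast was hybridised to Affymetrix Yeast 2.0 arrays. The deposited values are log2 expression per probe set, which the authors computed with RMA (affylmgui), so background correction, normalisation across arrays and summarisation had already been done. The values cover 10928 probe sets, S. pombe ones included. The number of arrays (6) limits the precision. Columns of the authors' fold changes, B-statistics, p-values and gene ontology groups were not used.

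The log2 values were fitted with limma 3.58.1 in R 4.3.3 (lmFit and eBayes, prior proportion 0.01) as eEF1A minus control, with variances moderated over 5810 S. cerevisiae probe sets. A gene with several probe sets (26 genes) was represented by the brightest. The 98 control and reporter probe sets were left out, and p-values were adjusted over 5684 genes by Benjamini-Hochberg. The fit was tested on simulated data. Correlations between arrays were 0.998 to 0.999 within control, 0.996 within eEF1A and 0.975 to 0.977 between groups.

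Gene names came from the array annotation, updated by locus tag through RefSeq (5713 probe sets matched). All 10 genes were named, with every gene of the NAD route, kinase and carrier, and sirtuin lists. Of the other lists, at most the 4 passing genes that moved most and the 2 brightest of the rest were named, together with the strain and mating-type markers. BAS1, ARO9, the stress genes MSN4, TPS1, CTT1, DDR2 and HSP26, and the neighbouring genes that passed fall outside this rule and were chosen after their values were seen. The genes and lists were chosen with earlier results of these data known. One gene of the tryptophan list was not analysed here, nor were promoter and protein sequences or the study's metabolite measurements.

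The alternatives were another moderation set, removal of dim genes, a second quantile normalisation, median centring, array weights, limma-trend, averaging of probe sets, removal of shared probe sets, robust moderation, a replicate block, leaving out each array, only arrays 2 and 3, and the B-statistic rule.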

Additional observations from a re-analysis of the deposited data

Results flagged for a closer look

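In each of 77 genes of the lists the 4 control arrays were checked for an array that lay far from the other 3, by Dixon's test at the 95% level, which flags about 1 in 20 groups by chance. None of the 10 NAD synthesis and salvage genes was picked out. POS5, the mitochondrial NADH kinase, read 9.47 in control 2 and 9.52 to 9.53 in the other controls. HSP26 read 8.35 in control 2 and 8.57 to 8.62 in the others. ARO9, an aromatic aminotransferase gene, read 7.83 in control 2 and 7.96 to 7.99 in the others. GUT2, the mitochondrial glycerol phosphate dehydrogenase gene, read 8.54 in control 3 and 8.31 to 8.33 in the others. None of these 4 genes passed the test between eEF1A and control in the values as deposited. The 2 eEF1A arrays were too few for this check.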

How the results depend on the processing

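The 8 NAD genes that rose kept their direction under each of the 17 alternatives other than the B-statistic rule. PNC1, BNA1, BNA5 and BNA6 passed in all of those alternatives that kept both eEF1A arrays. Of these genes only PNC1 also passed the B-statistic rule. The count of NAD genes higher was 8, and it was 7 or 8 when any single control array was left out. It was 7 with array weights (BNA4 lost, adjusted p = 0.0659, limma), 6 with only arrays 2 and 3 of each group (BNA2, adjusted p = 0.0682, and BNA4, adjusted p = 0.105, lost) and 1 by the B-statistic rule. The kynurenine count, 6 in the values as reported, was 0 by the B-statistic rule, 3 with only arrays 2 and 3 and 4 with the replicate number as a block. None of the 10 genes fell under any alternative.

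Over all genes, leaving out single control arrays gave 1265 to 1494 genes higher and 686 to 731 lower. With only arrays 2 and 3 the counts were 855 higher and 459 lower, and by the B-statistic rule 349 higher and 144 lower. Array weights gave 1084 higher and 563 lower. The lower count was 1491 after a second quantile normalisation and 1453 after median centring.

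Replicate numbers 2 and 3 occur in both groups, but the labels do not say that a number marks a shared culture or day, and the differences between arrays 2 and 3 correlated at -0.03 between the groups over all genes. With the replicate number as a block, 5 NAD genes were higher. BNA4 (adjusted p = 0.110), NPT1 (0.120) and NMA2 (0.0517) no longer passed (limma). In that fit every NAD synthesis and salvage gene had the same standard error, 0.138. Its calls on these genes therefore followed the size of the difference alone, not the spread of each gene. NPT1, even in both eEF1A arrays, was lost at 0.29. BNA2, whose eEF1A arrays differed by 0.89, passed at 0.70. The block therefore cannot decide whether the calls hold for paired arrays. The block gave 774 genes higher and 437 lower over all genes. Removal of dim genes took out SPR3, SPS2, SPS4 and SPR28, so it gave no value for them. With 2 eEF1A arrays, whose spread was assumed to be like that of the controls when 1 was left out, small differences such as those of NMA1 and BNA3 were not resolved.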
